A study of Arabidopsis thaliana with 12 samples.

Results

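The response described here is the average change of Arabidopsis thaliana seedlings grown on 3-bromo-7-nitroindazole (3B7N) over 2 genotypes, and above all the genes that moved the same way in each. It covers all 12 arrays of the series, 6 with the compound against 6 with its solvent, dimethyl sulfoxide (DMSO), with genotype in the model. The wild type was Col-0, and the other genotype, the double mutant cry1cry2, lacks the blue light receptors CRY1 and CRY2 but still has CRY3. Seeds of all groups were kept for 3 days at 4°C in the dark on agar medium holding 15 µM 3B7N or DMSO, and whole seedlings were then harvested after 4 days of continuous blue light at 5 µmol m-2 s-1. Each of the 4 groups, wild type on DMSO, wild type on 3B7N, cry1cry2 on DMSO and cry1cry2 on 3B7N, held 3 one-colour Agilent arrays. Of the 3 chemicals that the design text mentions, these samples hold 1. The labels give neither the cry1 and cry2 alleles nor whether replicate samples were grown as separate cultures, and the p-values therefore measure the spread between these samples.

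A gene was called in the mean effect where its adjusted p, over all 20491 genes tested with limma, was under 0.05 and its log2 difference at least 1 in size. A called gene was counted as shared where its change also passed an adjusted p of 0.05 in wild type alone and in cry1cry2 alone, in the same direction. The mean effect held 566 called genes that were higher on 3B7N (2.76% of those tested) and 508 that were lower (2.48%), 1074 in all (5.24%). Of these, 224 were shared and higher (1.09%) and 182 shared and lower (0.888%), which makes 406 shared genes (1.98%). The counts of gene lists below are to be read beside these shares. Measured values did not choose the contrast, but the shared genes were taken by their change in each genotype, so their direction there is a description of the choice. All levels below are relative log2 signals, the log2 processed signal minus the 75th percentile of its array, so a level of 0 equals that percentile.

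Cryptochromes are flavin-binding receptors that, in blue light, hold the hypocotyl short and keep the light-grown form of the seedling. 3B7N is a nitroindazole that inhibits nitric oxide synthases of mammals. Plants meet many foreign compounds with a set of conjugating enzymes and exporters, among them glutathione transferases, glycosyltransferases and ABC transporters, and they seal tissues with suberin and cutin, polyesters built from fatty acids that the cytochromes P450 of the CYP86 family hydroxylate and the GPAT acyltransferases join to glycerol.

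The probes of CRY1 (AT4G08920) and CRY2 (AT1G04400) matched the labels on every array. CRY1 stood between 3.25 and 3.85 on the 6 wild-type arrays and between -9.86 and -7.73 on the 6 mutant arrays, and CRY2 between 1.84 and 2.48 and between -8.94 and -8.60. The 75th percentile of the processed signal ran from 885.8 to 6814 over the arrays, the share of probes well above background from 64.4% to 81.2%, and arrays of a group correlated at r = 0.979 to 0.993 across genes. The arrays lay on 3 slides of 4. Slide 1 held the wild-type DMSO arrays and wild type on 3B7N 1, slide 2 the other wild-type 3B7N arrays and cry1cry2 on DMSO 1 and 2, and slide 3 cry1cry2 on DMSO 3 and the mutant arrays with 3B7N. A change within a slide can therefore be read in wild type from slide 1 (1 array against 3). In cry1cry2 it can be read from slide 3 (3 against 1). These within-slide values are given below for only some of the named genes. All 406 shared genes kept their sign in both genotypes within those slides, which hold many of the arrays that chose them. With slide as a block, 373 of the 406 were still called in the mean effect and 147 were still shared.

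Across all genes the changes in the genotypes were nearly unrelated, with a Pearson r of 0.038 over 20491 genes, which are not independent replicates. These 2 changes share no array. In wild type alone 8199 genes passed an adjusted p of 0.05 (40%) and 3070 were called (15%), and in cry1cry2 alone 1558 passed (7.6%) and 767 were called (3.74%). A total of 1012 genes passed in both, 12.3% of those of wild type and 65% of those of the mutant. These counts rest on single mutant arrays: without cry1cry2 on DMSO 1 or 3 or cry1cry2 on 3B7N 1, 925, 905 and 611 genes passed in the mutant and 622, 635 and 452 in both. With normexp correction, slide as a block and array weights, 652, 313 and 3071 passed in the mutant and 415, 202 and 1782 in both. Of the 1012, 288 were higher in both, 273 lower in both, and 451 moved in opposite directions, 376 of them lower in wild type and higher in the mutant. The response in 1 direction was thus a small set beside the change of wild type, and the plot of the changes in both genotypes shows it along the diagonal.

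**Figure D1:**
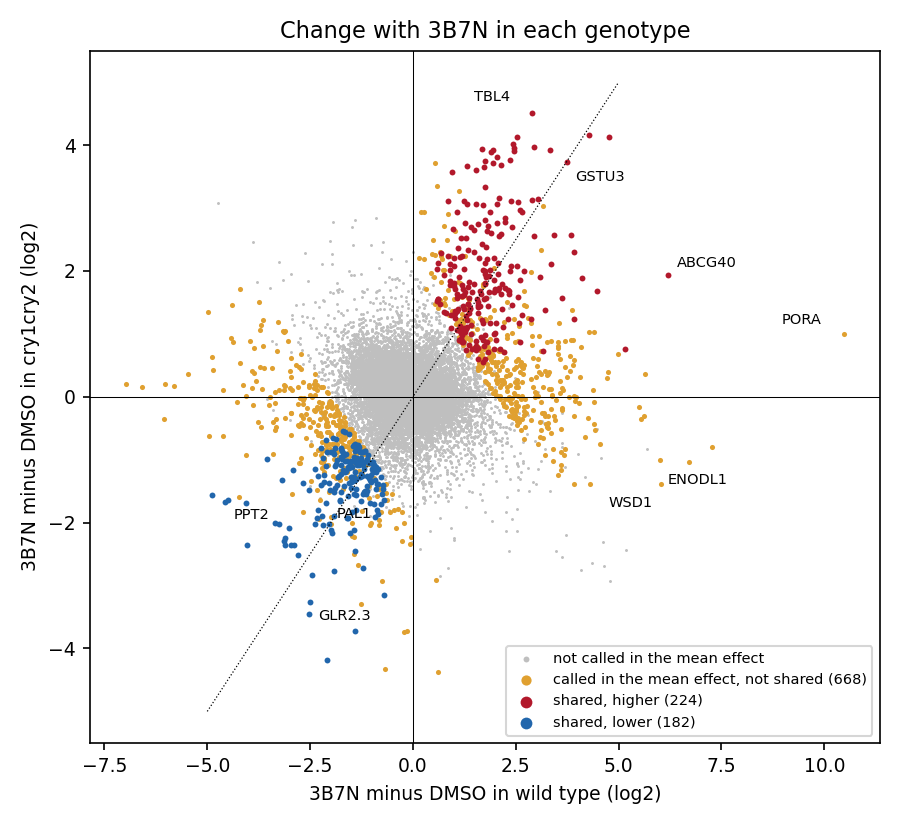
Each point is 1 of 20491 genes, with its log2 change on 3B7N in wild type on the horizontal axis and in cry1cry2 on the vertical axis. The 224 shared higher genes (red) lie in the upper right, the 182 shared lower genes (blue) in the lower left, and the 668 genes called in the mean effect but not shared (orange) spread mostly along the horizontal axis. The dotted line marks equal change.

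Among the shared genes the median change was 1.70 in wild type and 1.72 in cry1cry2 for those that were higher, and -1.52 and -1.27 for those that were lower. The median mean effect was 1.74 and -1.36, beside -0.01 over all genes tested. The treated arrays lay clear of the DMSO arrays in both genotypes for 220 of the 224 and for 176 of the 182, a count that the choice by change in each genotype largely fixes (3.23% and 3.33% of all genes did so in that direction). A change of at least 2-fold in each genotype alone was called for 168 and 116. The probe was well above background on all 12 arrays for 157 of the higher and 112 of the lower genes. For 38 of the higher genes it was so on no wild-type DMSO array, and for 3 on no mutant DMSO array.

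The 406 genes had no common starting level. On DMSO, 74 of the 224 higher genes were above wild type in cry1cry2 and 58 below, and of the 182 lower genes 46 were above and 60 below (adjusted p under 0.05). A change of the same direction could still differ in size. The difference between the genotypes passed for 84 of the 224 and 45 of the 182, where 29.8% of all genes passed. It was larger in the mutant in 50 of the 84 and in 12 of the 45.

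A part of the genes of suberin and cutin synthesis formed the clearest group that was higher in both genotypes. Of 26 tested genes of suberin and cutin synthesis, 13 rose and 1 fell in the mean effect, and 11 of the 13 and the 1 were shared. The median mean effect was 0.91, beside -0.01 over all genes. GPAT4 (0.18), GPAT8 (-0.80), ABCG11 (-0.003) and ABCG32 (0.13) were among the members not called, and GPAT8 changed by -1.33 in the mutant. Of the genes named here for cutin, GPAT6 rose and CYP77A6 fell. CYP86A1 (AT5G58860), a fatty acid hydroxylase of root suberin, had levels of -1.21, -1.28 and -1.62 in DMSO-grown wild type and of 0.86, 0.83 and 0.60 on 3B7N. In cry1cry2 it had -2.24, -2.42 and -2.15 on DMSO and 1.40, 1.49 and 1.36 on 3B7N. All 6 treated arrays were above the 75th percentile of their array and all 6 solvent arrays below it. The gene was named among those without overlap in either genotype, so the lack of overlap describes the choice. Its mean effect was 2.91 ± 0.10 (SE, 6 arrays against 6, adjusted p = 2.49e-08), and the change was 2.14 in wild type and 3.69 in the mutant.

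GPAT6 (AT2G38110), an acyltransferase of cutin synthesis, had levels of -3.71, -3.36 and -4.01 in DMSO-grown wild type and of -1.30, -0.82 and -1.55 on 3B7N. Its levels in cry1cry2 were -4.82, -4.78 and -4.95 on DMSO and -0.86, -1.06 and -0.78 on 3B7N. The mutant started lower and ended at about the wild-type level, and its rise of 3.95 exceeded that of 2.47 in wild type (difference 1.48 ± 0.29, adjusted p = 0.00321). The suberin acyltransferases GPAT5 and GPAT7, chosen after their values were seen as members of the family, had mean effects of 1.99 ± 0.16 and 1.68 ± 0.23. These 3 were the called genes among 9 tested GPAT genes. Within the slides GPAT6 changed by 2.39 in wild type and 4.04 in the mutant, and CYP86A1 by 2.24 and 3.57.

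Some transporters of the ABCG family move lipid and phenolic precursors across the plasma membrane. ABCG2 (AT2G37360), one of the exporters needed for the root suberin barrier, had levels of -2.70, -2.94 and -3.33 in DMSO-grown wild type and of -1.16, -1.36 and -1.19 on 3B7N, and in cry1cry2 of -3.72, -3.29 and -3.62 on DMSO and of -0.74, -0.64 and -0.82 on 3B7N. The mean effect was 2.28 ± 0.12. ABCG1 rose more in wild type (2.87) than in the mutant (1.24). The other suberin exporters ABCG6 and ABCG20 had mean effects of 1.89 ± 0.25 and 1.54 ± 0.12, and the second probe of ABCG20 was not called (0.81). In the family as a whole, gathered after values were seen, 10 of 34 tested ABCG genes were higher and 0 lower, 9 of them shared. Over all genes tested 2.76% were called higher and 1.98% were shared. ABCG23 at 2.27, ABCG10 at 2.07, ABCG31 at 1.75 and ABCG43 at 1.30 completed the 9 beside ABCG40 below. ABCG19, the tenth, changed by 2.51 in wild type and by 0.47 in the mutant.

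The remaining shared members of the list, named after their values were seen, were enzymes of the same polymers. FAR5, a reductase that makes the fatty alcohols of suberin, had a mean effect of 1.84 ± 0.20, FACT, which joins caffeic acid to such alcohols, 1.77 ± 0.21, and CYP86B1, a hydroxylase of very long chain acids, 1.43 ± 0.19. The member that fell was CYP77A6, a hydroxylase of flower cutin, at -1.20 ± 0.14, and its call ended with normexp correction (-0.90). FAR5 rose more in the mutant (2.53) than in wild type (1.16).

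Of 18 tested regulators and barrier proteins of suberin and the endodermis, 7 rose and 0 fell, and 4 were shared, all of them MYB factors. MYB93 (AT1G34670), a factor expressed in the endodermis, had levels of -3.89, -4.25 and -4.36 in DMSO-grown wild type and of -2.15, -2.15 and -2.06 on 3B7N. In cry1cry2 its levels were -5.29, -6.01 and -5.18 on DMSO and -1.77, -1.62 and -1.65 on 3B7N. Its mean effect was 2.93 ± 0.14 (adjusted p = 2.54e-07), and MYB67, MYB53 and MYB9 stood at 3.33, 1.37 and 1.35. The probe of MYB67 was above background on no wild-type DMSO array, so its change there is at least 1.99-fold. For this and every other gene given with such a bound, the mean effect is a fitted value that includes signals below background. The bound sets the mean of the brighter group against the lowest signal flagged well above background in the dim group. It is not strict where an array of the brighter group was below background too. MYB53 changed by 2.12 in the mutant and by 0.62 in wild type, and within slide 1 by 0.12. With normexp background correction the calls of MYB67 (0.76), MYB53 (0.64) and MYB9 (0.68) ended, and MYB93 kept its call at 1.86.

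Over the 18 genes of the list, which also holds proteins that build the Casparian strip, the median change was 1.45 in wild type and 0.14 in the mutant. Markers of root and endodermis can move with such a list in whole seedlings, where fewer cells of a type and less RNA per cell cannot be told apart. Of 15 tested root markers (of 16 listed), 1 was called higher and 0 lower in the mean effect and 0 were shared. Their summed linear signal, in units of each array's 75th percentile, was 25.5 to 29.5 in wild type on DMSO, 44.6 to 51.3 in wild type on 3B7N, 31.4 to 42.5 in cry1cry2 on DMSO and 27.9 to 39.3 in cry1cry2 on 3B7N. It was thus higher in treated wild type, and the mutant ranges overlapped. The part of the root markers in the suberin changes of either genotype was not tested.

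**Figure D2:**
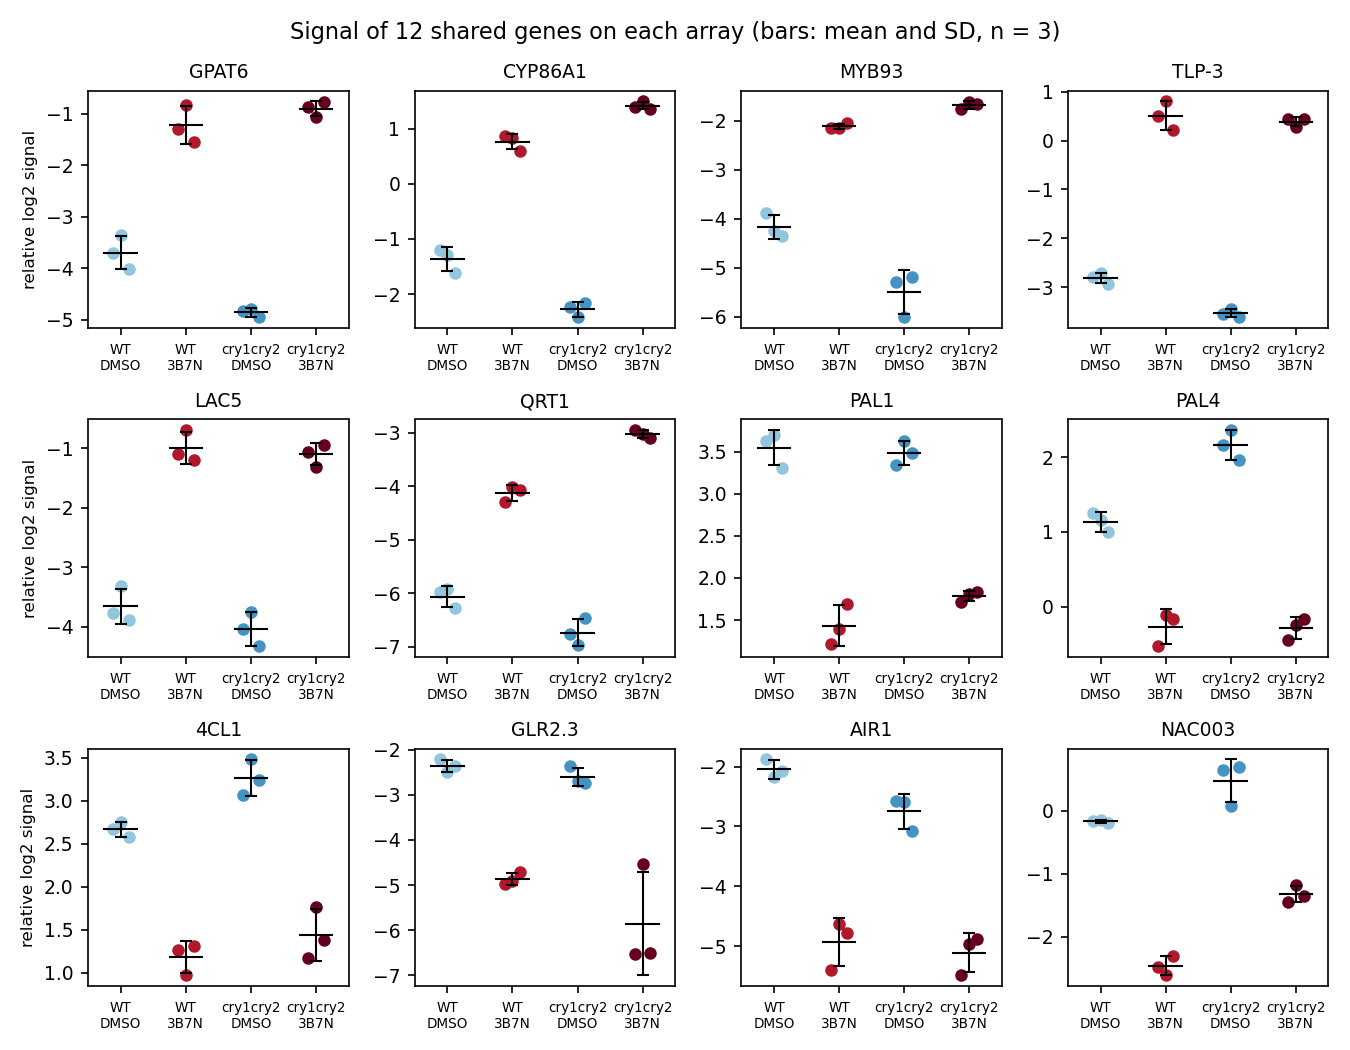
Relative log2 signal (log2 processed signal minus the 75th percentile of the array) of 12 shared genes on every array, by group, with bars for mean and SD (n = 3). In each of the 12 panels the 3 treated arrays of a genotype lie on 1 side of its 3 DMSO arrays, above for GPAT6, CYP86A1, MYB93, TLP-3, LAC5 and QRT1 and below for PAL1, PAL4, 4CL1, GLR2.3, AIR1 and NAC003. Most of these genes were named because their arrays did not overlap, and the others were taken from the shared genes. The separation therefore describes the choice.

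Laccases, copper oxidases that polymerise phenolics in the wall, were looked at as a family after values were seen. Of 13 tested, 3 were higher and 0 lower, and all 3 were shared. Over all genes tested 5.24% were called and 1.98% were shared. LAC5 (AT2G40370) had levels of -3.77, -3.33 and -3.89 in DMSO-grown wild type and of -1.09, -0.70 and -1.21 on 3B7N, and of -4.04, -3.76 and -4.33 in cry1cry2 on DMSO and -1.06, -1.31 and -0.95 on 3B7N. The rise was alike in size, 2.66 in wild type and 2.94 in the mutant, with a difference of 0.28 ± 0.29 (adjusted p = 0.493). LAC3 and LAC13 had mean effects of 1.88 ± 0.12 and 1.84 ± 0.11. The median over the 13 was 0.20, and 10 of the 13 were not called. Of 8 tested phloem and xylem markers 0 were called in the mean effect, but their summed signal was 17.57 to 19.7 in wild type on DMSO and 24.5 to 29.3 on 3B7N, and 25.8 to 33.1 in cry1cry2 on DMSO and 16.9 to 27.5 on 3B7N. The wild-type ranges did not overlap and the mutant ranges did, the median change of the markers was 0.33 in wild type and -1.18 in the mutant, and the difference between the genotypes passed for 4 of the 8. Their part in the changes of the laccases and of the phenylpropanoid genes was not tested.

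Genes of detoxification held a smaller group that was higher in both genotypes. Of 29 tested glycosyltransferases, cytochromes P450, reductases and exporters linked to foreign compounds, 9 rose, 7 of them shared, and 0 fell, with a median mean effect of 0.71. Of 27 tested glutathione transferases, 6 rose, 3 of them shared, and 1 fell, with a median of 0.52. ABCG40 (AT1G15520), a transporter known as an importer of abscisic acid, had the largest mean effect among shared genes with a symbol. Its levels were -8.56, -9.02 and -7.89 in DMSO-grown wild type and -2.09, -2.67 and -2.11 on 3B7N, and -3.16, -3.86 and -2.45 in cry1cry2 on DMSO and -1.40, -1.37 and -0.89 on 3B7N. The mutant already stood high on the solvent, and its rise of 1.93 ± 0.36 was smaller than that of wild type, which was at least 26.2-fold because no wild-type DMSO array was above background. Within slide 3 the mutant change was 1.23.

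GSTU3 (AT2G29470), a glutathione transferase, had changes of 3.75 in wild type and 3.73 in the mutant, with levels from -8.99 to -7.67 on the 6 DMSO arrays and from -5.86 to -3.97 on the 6 treated ones. It was above background on no wild-type DMSO array and on 1 of 3 mutant ones, so the wild-type change is at least 3.63-fold, and with normexp correction the mean effect was 0.96 and not called (adjusted p = 0.241). Its neighbour GSTU2 had a mean effect of 1.09 ± 0.14. GSTF6 stood at 1.39 ± 0.21, a value that is uncertain because GSTF6 and the nearly identical GSTF7 may share signal.

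Glycosyltransferases attach sugars to hormones and foreign compounds alike. UGT74E2 (AT1G05680), which acts on the auxin indole-3-butyric acid, had levels of 1.03, 1.09 and 0.97 in DMSO-grown wild type and of 2.97, 2.49 and 2.92 on 3B7N. In cry1cry2 it had 2.06, 1.83 and 2.29 on DMSO and 3.01, 2.95 and 3.15 on 3B7N, so that both genotypes ended near the same level from different starts. The mean effects of UGT76E12, of the salicylate glucosyltransferase UGT74F1 and of UGT73C7 were 1.51 ± 0.13, 1.06 ± 0.11 and 1.44 ± 0.19. CYP81D8, a cytochrome P450, and DTX1, an efflux carrier of the MATE family, were shared at 1.64 ± 0.23 and 1.60 ± 0.18. With normexp correction UGT76E12 (0.70), UGT74F1 (0.92), UGT73C7 (0.96), GSTU2 (0.94) and ABCG43 (0.51) were no longer called.

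The remaining leaders among the higher genes belonged to wall, defence and plasmodesmal families. TLP-3 (AT1G75030), a thaumatin-like protein, had levels of -2.79, -2.72 and -2.94 in DMSO-grown wild type and of 0.51, 0.81 and 0.21 on 3B7N, and in cry1cry2 of -3.55, -3.45 and -3.61 on DMSO and 0.44, 0.28 and 0.44 on 3B7N. The difference of about 3 to 4 log2 units was far beyond the spread of any group, and the mean effect was 3.62 ± 0.11 (adjusted p = 1.81e-08). Its neighbour on the chromosome, the pathogenesis-related gene PR5 (AT1G75040), a marker of the salicylate response, had a mean effect of 3.45 ± 0.24. These were the 2 called genes among 25 tested genes of pathogenesis and salicylate, whose median was 0.13. That count is near the share of 5.24% called over all genes. PR5 was above background on 2 of 3 DMSO arrays in each genotype, its second probe had changes of -0.44 in wild type and 1.68 in the mutant and was not called (0.62, adjusted p = 0.177), and with normexp correction its mean effect was 1.55 (adjusted p = 0.0684).

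TBL4 (AT5G49340), of a family that acetylates wall polymers, had a mean effect of 3.70 ± 0.19, but its signal was dim. It was above background on none of the 6 DMSO arrays and on 2 of 3 treated wild-type arrays. Its change is at least 5.95-fold in cry1cry2, and the wild-type value of 1.51-fold is not a strict bound. The neighbouring locus AT5G49350, chosen after its values were seen, was above background on all arrays and changed by 2.43 in wild type and 4.01 in the mutant. PXMT1, a methyltransferase, had a mean effect of 3.11 ± 0.37 and was at least 12.1-fold higher in wild type. QRT1 (AT5G55590), a pectin methylesterase of pollen tetrad separation, had levels from -6.97 to -5.93 on the DMSO arrays and from -4.29 to -2.95 on the treated ones, with a larger rise in the mutant (3.71) than in wild type (1.94). WRKY24, of the WRKY factors, and PDLP4, a protein of plasmodesmata, had mean effects of 3.18 ± 0.20 and 2.81 ± 0.21. With normexp correction the calls of TBL4 (0.66), QRT1 (1.22), WRKY24 (1.18) and PDLP4 (0.90) ended, with adjusted p-values from 0.0995 to 0.49.

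The 2 largest values among the shared genes belonged to loci for which no symbol was given here. AT2G47950 had levels of -7.28, -6.02 and -6.47 in DMSO-grown wild type and of -1.26, -0.84 and -3.37 on 3B7N, and in cry1cry2 of -4.21, -4.73 and -5.05 on DMSO and -0.35, -1.42 and 0.18 on 3B7N. Its mean effect was 4.45 ± 0.43. AT1G26380 had a mean effect of 4.23 ± 0.52. Its probe was above background on 1 of 3 DMSO arrays in wild type and on 2 of 3 in the mutant. The mutant DMSO levels were -5.05, -8.12 and -4.81, and the mutant change was 4.17, or 2.985 within slide 3. In the chromosomal run of AT1G26380, 3 more loci, AT1G26390, AT1G26410 and AT1G26420, were shared. AT1G26390 was above background on no wild-type DMSO array and on 2 of 3 treated wild-type arrays, so its 2.49-fold change there is not a strict bound. The mean effects of AT1G26410 and AT1G26420 were 1.64 and 2.004. With normexp correction AT1G26390 (0.43) and AT1G26410 (0.40) were not called. In all, 11 pairs of neighbouring genes were among the shared higher genes and 7 among the shared lower ones, and members of a pair may share signal where their sequences are alike.

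Single members of other lists were also shared and higher. Over all genes tested 1.98% were shared, and a single shared gene in a list of 21 to 27 does not set that list apart. ACS2, an enzyme of ethylene synthesis, had a mean effect of 1.36 ± 0.12 and was the 1 shared gene of 21 tested for ethylene. PORB (AT4G27440), which reduces protochlorophyllide in light, had levels from 3.34 to 4.84 on the DMSO arrays and from 5.12 to 5.60 on the treated ones. It was the 1 shared gene of 27 tested in a list of photomorphogenesis genes. In that list 4 genes were called higher and 4 lower in the mean effect, and the difference between the genotypes passed for 16. The change of PORB was larger in wild type (1.97) than in cry1cry2 (0.995, and 0.566 within slide 3). Its 4 other probes were also called in the mean effect. On them the change was 1.895 to 2.055 in wild type and only 0.411 to 0.721 in the mutant. AOX1D, an alternative oxidase of mitochondria, stood at 1.105 ± 0.19 as the 1 shared gene of 22 tested for reactive oxygen, and its call ended with normexp correction (0.31) and with slide as a block (0.84, adjusted p = 0.0678). The call of ACS2 ended with normexp correction (0.89).

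Enzymes of the phenylpropanoid pathway, which turns phenylalanine into the precursors of lignin and flavonoids, formed the clearest group that was lower in both genotypes. The family was gathered after values were seen. Of 18 tested genes, 11 were lower and 1 higher in the mean effect, with 9 of the 11 shared, and the median was -1.08. Phenylalanine ammonia-lyase, the entry enzyme, is encoded by 4 genes, of which PAL1, PAL2 and PAL4 were shared. PAL1 (AT2G37040) had levels of 3.63, 3.70 and 3.31 in DMSO-grown wild type and of 1.21, 1.39 and 1.70 on 3B7N, and in cry1cry2 of 3.34, 3.63 and 3.48 on DMSO and 1.72, 1.81 and 1.83 on 3B7N. Both genotypes began and ended at similar levels, and the mean effect was -1.90 ± 0.11 (adjusted p = 9.49e-07).

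PAL4 (AT3G10340) had levels of 1.25, 1.16 and 0.99 in DMSO-grown wild type and of -0.53, -0.11 and -0.16 on 3B7N. In cry1cry2 it had 2.16, 2.36 and 1.97 on DMSO and -0.45, -0.24 and -0.17 on 3B7N. It fell by 2.45 in the mutant, more than in wild type, where the change was -1.40 (difference -1.05 ± 0.22, adjusted p = 0.00502), and PAL2 fell more in wild type (-1.94 against -0.88). PAL3 did not reach the size for a call at -0.62. Within the slides PAL1 changed by -2.33 in wild type and -1.70 in the mutant, and PAL4 by -1.66 and -2.25.

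The next enzyme that activates the acids, 4-coumarate:CoA ligase, had 3 shared members. 4CL1 (AT1G51680) had levels of 2.67, 2.75 and 2.57 in DMSO-grown wild type and of 1.26, 0.97 and 1.31 on 3B7N, and in cry1cry2 of 3.07, 3.48 and 3.24 on DMSO and 1.17, 1.76 and 1.38 on 3B7N. Its mean effect was -1.66 ± 0.12, and the neighbours 4CL2 and 4CL5 stood at -1.19 ± 0.12 and -1.0 ± 0.11. 4CL3, the member tied to flavonoids, fell by 3.14 in wild type and changed by 0.10 in the mutant (difference 3.24 ± 0.70, adjusted p = 0.00556).

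Some further steps toward monolignols were lower too. CYP98A3, the hydroxylase of the coumaroyl esters, CCoAOMT1, a methyltransferase, and ATCAD4, an alcohol dehydrogenase, had mean effects of -1.15 ± 0.10, -1.02 ± 0.09 and -1.27 ± 0.10. FAH1, the hydroxylase that leads to sinapate, fell by 2.99 in wild type and changed by 0.145 in cry1cry2, so it was not shared. CCR2, a cinnamoyl-CoA reductase, was the 1 member called higher, by 1.64 in wild type and 1.44 in the mutant, and C4H and HCT did not reach a log2 change of 1 (-0.84 and -0.87). CCR1 (-0.35), OMT1 (-0.31) and CAD5 (-0.02) were not called either. CAD5 changed by 0.54 in wild type and -0.58 in the mutant. With normexp correction 4CL2 (-0.97), 4CL5 (-0.94) and CCoAOMT1 (-0.997) lay just short of the size for a call, each with an adjusted p of 0.00208 or below.

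**Figure D3:**
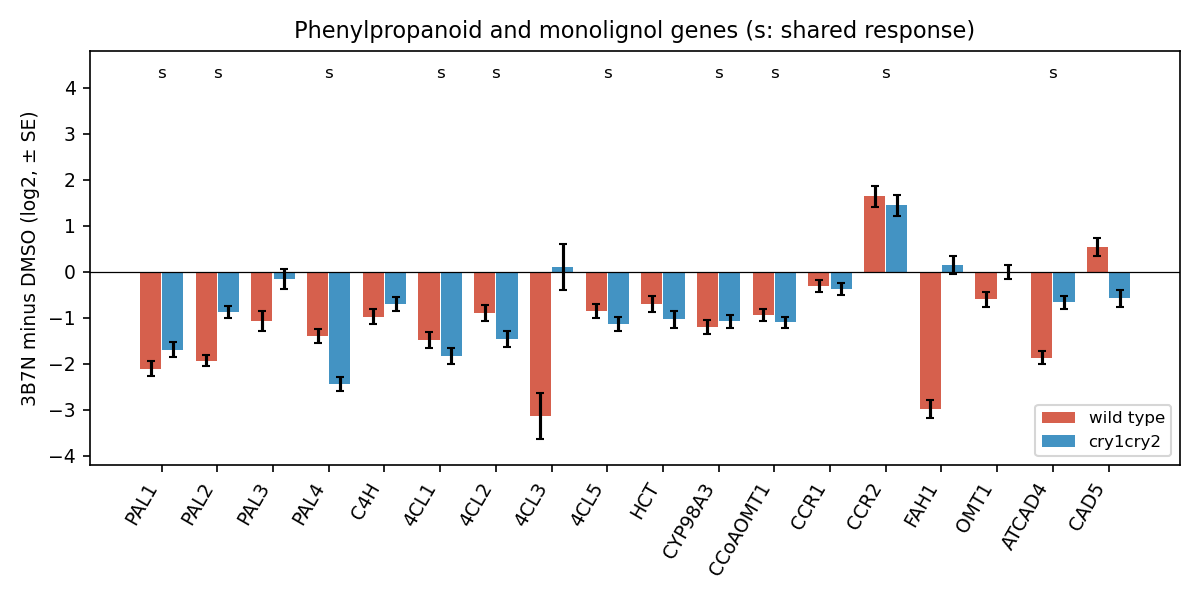
Bars give the log2 change on 3B7N of 18 phenylpropanoid and monolignol genes in wild type (red) and cry1cry2 (blue), with the SE of the fit, in the order of the pathway, and an s marks the 10 shared genes. PAL1, 4CL1, CYP98A3 and CCoAOMT1 were lower by similar amounts in both genotypes, whereas 4CL3 and FAH1 were lower in wild type, at -3.14 and -2.99, with a mutant bar near 0.

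The flavonoid branch behaved differently in the genotypes. Of 25 tested genes of the flavonoid and anthocyanin pathway, a list that also holds PAL1 and PAL2, 6 fell and 1 rose, and 3 were shared, with a median of -0.98 in wild type and 0.20 in cry1cry2. Beyond PAL1 and PAL2 the shared member was TT5 (AT3G55120), chalcone isomerase. Its levels were -0.62, -0.73 and -0.63 in DMSO-grown wild type and -2.11, -2.20 and -1.81 on 3B7N, and -0.85, -0.93 and -0.67 in cry1cry2 on DMSO and -2.48, -1.98 and -1.90 on 3B7N. It fell by 1.38 and 1.30, with a difference of 0.07 ± 0.24.

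Of the other lower genes, the methionine cycle that supplies methyl groups had 2 shared members of 9 tested, both chosen after their values were seen. MS2, a methionine synthase, had a mean effect of -1.46 ± 0.16, and SAHH2, an adenosylhomocysteinase, one of -1.43 ± 0.14. The median over the 9 was -0.09. The second probe of MS2 was not called, with changes of -0.46 in wild type and -1.235 in the mutant.

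Glutamate receptor-like channels, ion channels gated by amino acids, held shared genes in both directions. Of 15 tested, looked at after values were seen, 3 were lower and 2 higher, and all 5 were shared, beside 1.98% shared over all genes. GLR2.3 (AT2G24710) had levels of -2.21, -2.49 and -2.37 in DMSO-grown wild type and of -4.97, -4.90 and -4.72 on 3B7N, and in cry1cry2 of -2.37, -2.71 and -2.73 on DMSO and -6.52, -4.54 and -6.51 on 3B7N. The wild-type arrays were close together, while the treated mutant arrays spread over about 2 log2 units. The mean effect was -2.88 ± 0.29, and its neighbour GLR2.2 stood at -2.64 ± 0.21, at least 2.95-fold lower in wild type. GLR2.6 was lower (-1.41 ± 0.16). The neighbours GLR2.8 (fitted mean effect 1.88 ± 0.25) and GLR2.9 (1.13 ± 0.22) were higher, but dim. GLR2.8 was above background on no wild-type DMSO array and on 2 of 3 treated wild-type arrays, so its 1.85-fold change there is not a strict bound. GLR2.9 was above background on no wild-type array. With normexp correction the values of GLR2.8 (0.21), GLR2.9 (0.09) and GLR2.6 (-0.57) were not called.

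PPT2 (AT3G01550), a phosphoenolpyruvate transporter of the chloroplast envelope, had the lowest mean effect among shared genes with a symbol, at -3.12 ± 0.20. Its levels were 0.02, -0.47 and 0.36 in DMSO-grown wild type and -4.57, -4.57 and -4.68 on 3B7N. In cry1cry2 they were -4.91, -4.62 and -4.63 on DMSO and -7.07, -6.27 and -5.83 on 3B7N. Untreated mutant seedlings thus stood where treated wild type stood, and still fell by a further 1.68 ± 0.28 (adjusted p = 0.00485). XTH6 (AT5G65730), an enzyme that cuts and rejoins wall xyloglucan, had the same order of groups, from 3.61 to 4.04 in wild type on DMSO and from 0.85 to 1.51 on 3B7N, and from -1.01 to -0.69 in cry1cry2 on DMSO and -2.81 to -1.90 on 3B7N.

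AIR1 (AT4G12550), a wall protein gene induced by auxin in roots, had levels of -1.88, -2.18 and -2.08 in DMSO-grown wild type and of -5.39, -4.63 and -4.78 on 3B7N, and in cry1cry2 of -2.57, -2.59 and -3.08 on DMSO and -5.48, -4.95 and -4.88 on 3B7N. It fell by 2.89 and 2.36. CKX2, a cytokinin oxidase, had a mean effect of -2.66 ± 0.22 and was at least 3.86-fold lower in wild type. SAG29, a sugar transporter linked to senescence, stood at -2.05 ± 0.20, with changes of -1.98 and -2.12 from starting levels that differed by about 3 log2 units between the genotypes.

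The transcription factor genes NAC003 and NAC074 and the gene PR-1-LIKE were lower as well. NAC003 (AT1G02220) had levels of -0.16, -0.15 and -0.19 in DMSO-grown wild type and of -2.48, -2.60 and -2.31 on 3B7N, and of 0.65, 0.08 and 0.70 in cry1cry2 on DMSO and -1.44, -1.18 and -1.35 on 3B7N. Its mean effect was -2.05 ± 0.12, and its neighbour NAC004 was among the shared lower genes. NAC074 and PR-1-LIKE stood at -2.66 ± 0.22 and -2.71 ± 0.17. CYP71B9, a cytochrome P450, stood at -2.99 ± 0.50 but was dim in treated seedlings, at least 1.51-fold lower in wild type, and not called with normexp correction (-0.81, adjusted p = 0.134).

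HB1 (AT2G16060), a haemoglobin known to consume nitric oxide, was the 1 called gene of 21 tested for nitrate assimilation and nitric oxide. That count is near the share of 5.24% called over all genes. HB1 had levels of -0.53, 0.21 and 0.70 in DMSO-grown wild type and of -1.18, -1.94 and -1.91 on 3B7N, and in cry1cry2 of 1.68, 1.94 and 1.96 on DMSO and 0.30, 0.61 and 0.92 on 3B7N. The mean effect was -1.53 ± 0.21 (adjusted p = 0.000461), and within the slides the changes were -1.30 and -1.35. Of 24 tested genes of wall expansion, 3 fell and 1 rose, and XTH20 was the 1 shared gene (-1.34 ± 0.20, and not called with normexp correction, at -0.69). No member of the lists for light harvesting and photosynthesis (32 tested), cell division (22 tested) or housekeeping (15 tested) was called. Their medians were 0.23, -0.23 and -0.03. Of all genes tested 5.24% were called, and 0 calls in lists this short is near that share.

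At the threshold, FH8 (1.03) and PHT1;8 (1.04) were the shared higher genes with a symbol just inside it and DGR1 (0.999) and CKX6 (0.99) just outside, and on the other side 4CL5 (-1.0) and PP2-B2 (-1.001) were just inside and TBL33 (-0.995) and MPK12 (-0.99) just outside. The second probe of PHT1;8 was not called and went the other way in wild type (-0.32), and its call ended with slide as a block (0.885) and with normexp correction (0.08). With normexp correction FH8 (0.86) and PP2-B2 (-0.86) also fell short of the size for a call. The calls of 4CL5 (-0.94 and -0.96) and PP2-B2 (-0.94 and -0.94) ended with median scaling and quantile normalization, and that of 4CL5 (-0.96) with array weights. Leaving out 1 array at a time ended the call of 4CL5 in 4 of 12 fits and that of PP2-B2 in 7.

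Most genes called in the mean effect were not shared, 342 of the 566 higher and 326 of the 508 lower. Of these, 288 and 274 passed in wild type and not in cry1cry2 alone, 28 and 29 in cry1cry2 and not in wild type, and 22 and 15 in neither. The difference between the genotypes itself passed for 320 of the 566 and 236 of the 508 called genes, and the estimates had opposite signs in 91 and 70. A mean over the genotypes therefore also holds genes that a large change in 1 genotype carries past the threshold.

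PORA (AT5G54190), the protochlorophyllide reductase of dark-grown seedlings, is such a gene. It had levels of -8.59, -7.62 and -7.38 in DMSO-grown wild type and of 2.31, 2.49 and 3.04 on 3B7N, at least 771-fold higher, while in cry1cry2 it had 3.73, 3.14 and 3.96 on DMSO and 4.96, 4.67 and 4.19 on 3B7N. The mutant on the solvent already stood above treated wild type. The mutant change was 0.99, and the fitted difference between the genotypes passed (adjusted p = 1.25e-06). ENODL1, an early nodulin-like protein, rose by 6.71 in wild type and fell by 1.03 in the mutant, and WSD1, a wax ester synthase, was at least 13.4-fold higher in wild type and fell by 1.38 in the mutant. HEC2, CBSX5, TSPO and the wax gene CER1 changed by 4.75, 3.62, 3.35 and 3.23 in wild type and by 0.39, -0.21, -0.58 and -0.43 in the mutant, and DOT3 by -3.67 and 0.12. With normexp correction WSD1 (0.47) and DOT3 (-1.33) were not called in the mean effect.

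Several lists held called genes but no shared one, where 2.76% of all genes tested were called higher and 1.98% were shared. None of the genes called higher for auxin response (5 of 31 tested), the response to PIF factors and shade (4 of 21), dark and sugar starvation (4 of 26), abscisic acid and water stress (4 of 27), jasmonate (3 of 25) or cuticular wax (3 of 16) was shared, and 0 of each list were lower. The medians in wild type and cry1cry2 were 0.84 and -0.16 for auxin, 0.75 and -0.17 for PIF and shade, 1.19 and -0.10 for dark and sugar starvation and 1.17 and -0.02 for abscisic acid. They were 0.73 and 0.01 for jasmonate and 0.26 and -0.26 for wax, where the difference between the genotypes passed for 7 of 25 and 6 of 16 genes, beside 29.8% of all genes. IAA20 and GH3.3, which respond to auxin, changed by 4.98 and 2.21 in wild type and by 0.68 and 0.23 in the mutant. XTH15 and CKX5 of the shade list changed by 3.61 and 2.60 in wild type and by 0.14 and 0.51 in the mutant.

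BCAT-2 and DIN2 of the starvation list changed by 3.18 and 1.95 in wild type and by -0.26 and 0.06 in the mutant, and the phosphatase genes HAI1 and ABI2 of abscisic acid signalling by 3.05 and 1.60 and by 0.01 and 0.54. The difference between the genotypes passed in all 8 (adjusted p from 2.71e-05 to 0.0254). The jasmonate genes VSP1 and VSP2 changed by 1.997 and 1.90 in wild type and by 0.10 and 0.14 in the mutant. The second probe of VSP2 was called (1.51), with changes of 2.13 in wild type and 0.89 in the mutant. On the 3 other probes of VSP1 the mutant change was -0.37, -0.76 and -0.31. The other probes of VSP1 and DIN2 were not called in the mean effect, with normexp correction VSP1 (0.92) and VSP2 (0.79) were not called, and with slide as a block VSP2 was at 0.95. HSFA2, the heat shock factor, was called at 3.23 ± 0.89, but its mutant arrays ran from -0.60 to 4.83 on DMSO and from -0.47 to 3.53 on 3B7N, and without wild type on DMSO 3, wild type on 3B7N 2 or cry1cry2 on DMSO 1 or 3 the call was lost (adjusted p from 0.0526 to 0.0579).

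**Figure D4:**
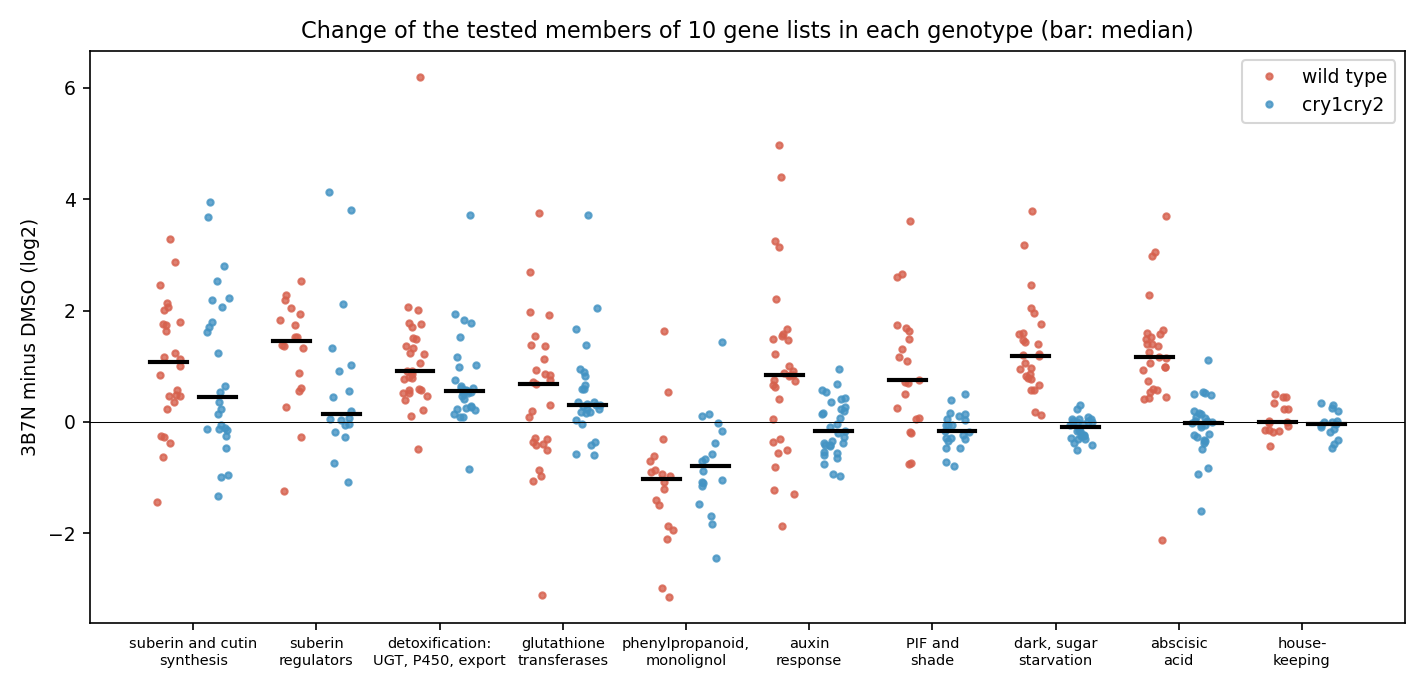
Each point is a tested member of a gene list, with its log2 change on 3B7N in wild type (red) or cry1cry2 (blue), and bars mark the medians. Medians lay above 0 in both genotypes for suberin and cutin synthesis (1.07 and 0.45), detoxification (0.91 and 0.55) and glutathione transferases (0.68 and 0.31), below 0 in both for the phenylpropanoid genes (-1.03 and -0.79), and apart for auxin, shade, starvation and abscisic acid.

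The authors' deposited table lists probes for each genotype, with 3453 for wild type, 577 for cry1cry2 and 311 for both, which is 9.01% of the first list and 53.9% of the second. Of the 406 probes that stand for the shared genes, the authors' deposited table holds 155 in both lists, 235 in the wild-type list and 186 in the mutant list. The sources used here state neither the filter nor the correction behind that table.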

How the data were processed

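Per the file headers, spots were extracted by Agilent Feature Extraction 10.7.3.1; of the deposited columns the background-subtracted processed signal was taken, an intensity that the authors had not scaled between arrays; the p-values and fold changes of the authors' deposited table only served to list probes. Spots of a probe were averaged on the log2 scale (43603 probes from 43803 non-control spots, 24 with an outlier spot left out), and each array was set to its 75th percentile. Probes well above background on all 3 arrays of a group were kept. RefSeq accessions gave loci and symbols (TAIR10.1 table; the headers name TAIR10, so no coordinates are given) for 34326 probes, and the brightest kept probe stood for each of 20491 genes. Limma 3.58.1 in R 4.3.3 fitted 4 group means (two-sided, Benjamini-Hochberg), and the script was tested on simulated data. A fold against a group not above background on any array is a bound, set against the lowest signal flagged well above background on each of its arrays. Such a bound is not strict where an array of the brighter group was below background too. The number of arrays limits the precision. Genes named are the 14 highest and 12 lowest shared genes with a symbol and no overlap, shared list members, up to 8 genes that differ most between the genotypes, CRY1, CRY2 and those next to the threshold; families were gathered after values were seen. The members and lists were chosen with earlier results of these data known. Of the list symbols, 2 were not resolved. Replicate numbers did not pair the samples (correlations of same-numbered deviations from -0.325 to 0.358). Other scalings, background correction, filters, slide, array weights and left-out arrays were tried.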

Additional observations from a re-analysis of the deposited data

Results flagged for a closer look

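For 55 of the 110 named genes the change on 3B7N differed between the genotypes by the test of the difference itself (limma, adjusted p under 0.05). The values are the change in cry1cry2 minus that in wild type on the log2 scale. Of the 55 genes, 32 were shared, and 18 of the 32 changed more in the mutant.

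Among the shared higher genes the mutant rose more in the suberin and cutin genes CYP86A1 (1.55), GPAT6 (1.48), FAR5 (1.36), ABCG2 (1.05) and ABCG20 (1.07), in the MYB factors MYB93 (1.77), MYB67 (1.59) and MYB53 (1.50), in the transporter genes ABCG10 (1.17) and ABCG23 (0.89) and in LAC13 (0.98). It also rose more in PDLP4 (2.26), QRT1 (1.77), TBL4 (1.60), AT5G49350 (1.58), WRKY24 (1.44) and UGT74F1 (0.92). Wild type rose more in ABCG40 (-4.27), ABCG1 (-1.63), LAC3 (-1.42), ACS2 (-1.20), MLS of the glyoxylate cycle (-1.09), UGT76E12 (-0.985), PORB (-0.97) and UGT74E2 (-0.79).

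Among the shared lower genes the mutant fell more in PAL4 (-1.05), and wild type fell more in PPT2 (2.90), ATCAD4 (1.21), PAL2 (1.06), XTH6 (1.06), GLR2.6 (1.01) and SAHH2 (0.84).

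The genes called in the mean effect and not shared were PORA (-9.48), HSFA2 (-8.05), ENODL1 (-7.74), WSD1 (-7.41), HEC2 (-4.36), IAA20 (-4.29), TSPO (-3.92), CBSX5 (-3.84), CER1 (-3.66), XTH15 (-3.47), BCAT-2 (-3.44), HAI1 (-3.04), CKX5 (-2.09), ABCG19 (-2.03), GH3.3 (-1.98), VSP1 (-1.90), DIN2 (-1.89), VSP2 (-1.75) and ABI2 (-1.06), which rose more in wild type, and DOT3 (3.78), 4CL3 (3.24) and FAH1 (3.135), which fell more in wild type. CRY2, used to check the labels, had a difference of -0.56. Its probe was above background on 1 of 3 mutant DMSO arrays and 0 of 3 mutant 3B7N arrays, so that value is not a measured size.

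The values of ABCG40, PORA, WSD1, MYB67 and TBL4 are fitted differences and not measured sizes, because no wild-type DMSO array was above background for these genes, and for TBL4 no mutant DMSO array either. The wild-type bounds of ABCG40 (at least 26.2-fold), PORA (at least 771-fold) and WSD1 (at least 13.4-fold) exceed the mutant change, whereas the bounds of MYB67 (1.99-fold) and TBL4 (1.51-fold) leave the order of the genotypes unsettled.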

How the results depend on the processing

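For no named gene did a mean effect called in either fit change its sign under an alternative. That check does not cover the sign in each genotype, and counts have no sign to reverse. Of the 406 shared genes, 374 stayed shared with median scaling, 357 with quantile normalization, 384 with slide as a random block (chosen after seeing the data) and 155 with normexp background correction, where 368 kept their sign in both genotypes. With normexp correction 271 genes were higher and 212 lower in the mean effect, 93 and 74 were shared, 33 shared genes differed between the genotypes and 177 genes moved in opposite directions. Normexp ended the mean-effect call of 35 of the 110 named genes. With a probe above background on all 12 arrays the mean effect held 377 higher and 268 lower genes and 119 shared lower ones, since fewer genes are tested. With slide as a block 107 and 51 genes were shared, 37 of them differed and 38 moved in opposite directions. Without the filter 296 genes moved in opposite directions, and with array weights 873; the cause was not tested. Leaving out 1 array at a time gave 512 to 614 higher and 433 to 564 lower genes, 172 to 214 shared higher and 97 to 235 shared lower genes, 87 to 123 that differed among the shared, and 133 to 470 in opposite directions. The shared lower genes numbered 111 without cry1cry2 on DMSO 1, 120 without its array 3 and 97 without cry1cry2 on 3B7N 1, and genes in opposite directions 246, 252 and 133 without the same arrays and 271 without cry1cry2 on DMSO 2. Leaving out 1 array also ended the mean-effect calls of 11 named genes near the threshold, with values of 0.886 to 0.998 in size. The arrays were wild type on DMSO 1 (4CL5, AOX1D, DIN2, GLR2.9), 2 (DIN2) and 3 (ABI2, CCoAOMT1, PHT1;8, PP2-B2, VSP2), wild type on 3B7N 1 (4CL5, DIN2, PP2-B2, UGT74F1), 2 (DIN2, GLR2.9, PHT1;8, VSP2) and 3 (PP2-B2), cry1cry2 on DMSO 1 (ABI2, DIN2, PP2-B2), 2 (4CL5, FH8, VSP2) and 3 (CCoAOMT1, GLR2.9, PP2-B2, VSP2), and cry1cry2 on 3B7N 1 (4CL5, CCoAOMT1, PP2-B2, VSP2) and 3 (ABI2, AOX1D, DIN2, FH8, PP2-B2). Replicate numbers share only a number: with them as a block 370 of the 406 genes stayed shared and 0 named calls changed. Dim probes, below background in 1 group, limit the size of a change, and 269 of the 406 shared genes were above background throughout.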

Other observations

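Genes of reserve use in the seedling held 1 member of the shared response. Of 12 tested genes of seed storage and its use, 3 were higher and 0 lower in the mean effect, and MLS, malate synthase of the glyoxylate cycle, was shared with changes of 2.196 in wild type and 1.11 in cry1cry2. The median of the 12 genes was 1.94 in wild type and -0.45 in the mutant. Their summed linear signal was 24.2 to 39.1 in wild type on DMSO and 98.5 to 122 on 3B7N, and 50.0 to 89.9 in cry1cry2 on DMSO and 84.1 to 98.7 on 3B7N.

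Guard cell markers moved the other way in wild type. Of 6 tested, 1 was called lower in the mean effect and 0 were shared, and their summed signal was 21.5 to 29.8 in wild type on DMSO, 10.2 to 12.1 on 3B7N, 10.7 to 13.8 in cry1cry2 on DMSO and 5.64 to 11.1 on 3B7N. Of 8 tested mesophyll markers and 6 epidermis markers, 0 were called in the mean effect, near the share of 5.24% over all genes.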
